A study of Mus musculus with 2 samples.

Results

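DNA methylation in mouse peripheral blood cells was examined in 3 chromosomal segments, distal chromosome 1 (chr1:180000001-195000000), proximal chromosome 12 (chr12:20000001-30000000) and proximal chromosome 8 (chr8:30000001-40000000). Their members were all windows of 1000 bp that held 3 or more CpG cytosines with a coverage of 10 or more in each library. There were 2218 such windows of 165854 on the autosomes and X, with 1228 on chromosome 1, 513 on chromosome 12 and 477 on chromosome 8. The segments were chosen by measured values, namely the many windows with less methylation in the I-PpoI library, so counts of such windows describe the choice and carry no test. The remainder of the same chromosomes, with 24754 windows, was the comparison.

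Reduced representation bisulfite sequencing (RRBS) of genomic DNA gave 1 library labelled WT and 1 labelled I-PpoI. Per the series title, the I-PpoI mouse expresses this homing endonuclease, an enzyme that cuts both DNA strands, in epithelial cells of the kidney's proximal tubule. The cells in which it is expressed, per that title, are thus not the blood cells measured. The strain, age and sex of the animals, and whether a library holds 1 animal or a pool, are not stated in the labels. Because each group has 1 library, every test on reads below compares these libraries and not the conditions, and no difference has a replicate check.

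In mammals methyl groups sit mostly on the C of CG dinucleotides. Most CpGs of the genome carry them in blood cells, while dense clusters at gene starts are usually free of them. In RRBS the enzyme MspI cuts DNA at CCGG, short fragments are kept, and bisulfite turns unmethylated C into T. A cytosine is therefore measured only where a fragment of suitable length ends at nearby CCGG sites, and CpGs on a fragment share reads.

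The WT library listed 3569384 cytosines at a median of 53 reads and the I-PpoI library 3141563 at a median of 49. Of 450874 listed cytosines inside the RefSeq promoter table, 99.86% sat at a CG of GRCm38.p6, against 12.3% after a shift of 2 bp, so positions below are read as GRCm38.

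Gene starts in the segments were examined first. Of 382 promoters of the RefSeq table (304 symbols), 132 held 3 or more shared cytosines in the 250 bases before the start, and their median level was 5.43% in WT and 4.63% in I-PpoI. Of the 382, 250 were on chromosome 1, 107 on chromosome 12 and 25 on chromosome 8. None of the 25 on chromosome 8 held 3 shared cytosines, so the promoter values describe chromosomes 1 and 12. That segment has 35 protein-coding genes, so the promoter table lacks some of its starts. Shared cytosines were not absent there, as 1 window of Tex15 held 85 of them, at 6.14% in WT. The difference was 10 points or more downward in 4 of the 132 promoters and upward in 1. The promoters of 4 genes are printed, chosen after their values were seen: those with 10 or more cytosines of at least 20 reads listed in 1 file alone, and those with 10 or more shared cytosines and a fall of at least 10 points. The sequences are the 250 bases before the start in GRCm38.p6, each on the minus strand. In the first pair capitals mark CpGs with a cytosine listed at 20 or more reads in I-PpoI alone. Ywhaq encodes a 14-3-3 adaptor protein (chr12:21417437-21417686), and Id2 an inhibitor of basic helix-loop-helix factors that acts in lymphocyte development (chr12:25096093-25096342).
Ywhaq: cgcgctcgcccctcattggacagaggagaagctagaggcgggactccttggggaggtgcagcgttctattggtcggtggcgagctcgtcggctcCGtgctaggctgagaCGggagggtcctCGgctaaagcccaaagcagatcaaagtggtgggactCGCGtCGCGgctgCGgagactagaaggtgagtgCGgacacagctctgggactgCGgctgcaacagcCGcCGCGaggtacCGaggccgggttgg
Id2: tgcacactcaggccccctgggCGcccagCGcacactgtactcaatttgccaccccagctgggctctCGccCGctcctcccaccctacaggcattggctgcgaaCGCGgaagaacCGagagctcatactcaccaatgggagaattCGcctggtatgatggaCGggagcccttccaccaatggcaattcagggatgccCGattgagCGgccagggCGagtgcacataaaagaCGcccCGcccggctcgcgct

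In the second pair capitals mark CpGs with a cytosine shared by both libraries. Gm38699 (chr12:23800956-23801205) is a predicted protein-coding gene and Gm32767 (chr1:181540015-181540264) a lncRNA locus.
Gm38699: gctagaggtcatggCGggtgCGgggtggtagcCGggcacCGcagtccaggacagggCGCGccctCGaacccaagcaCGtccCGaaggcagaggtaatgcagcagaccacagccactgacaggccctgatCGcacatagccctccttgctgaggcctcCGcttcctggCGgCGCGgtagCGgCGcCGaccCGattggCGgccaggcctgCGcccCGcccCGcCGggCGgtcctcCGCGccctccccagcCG
Gm32767: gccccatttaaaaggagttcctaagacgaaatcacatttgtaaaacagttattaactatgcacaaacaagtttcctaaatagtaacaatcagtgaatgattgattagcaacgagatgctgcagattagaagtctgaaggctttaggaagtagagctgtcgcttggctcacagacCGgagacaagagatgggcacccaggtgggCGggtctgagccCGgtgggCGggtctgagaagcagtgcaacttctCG

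The MspI site CCGG, which reads alike on both strands and was the only motif searched, occurred in 46.6% of the segments' promoters and in 47.3% of all 32619 promoters of the table. In the Gm38699 promoter, 50 shared cytosines had 44.2% methylation in WT (95% Wilson interval 41.9 to 46.6, 1777 reads over cytosines) and 23.7% in I-PpoI (21.9 to 25.6, 2030 reads). The difference was -20.5 points (Newcombe 95% interval -23.5 to -17.6), and 43 of the 50 cytosines were lower in I-PpoI. Single cytosines ran from 7.69% to 100% in WT and from 0% to 85% in I-PpoI, so the ranges overlapped. The Gm32767 promoter had 38.7% in WT and 27.2% in I-PpoI over 10 cytosines, a difference of -11.5 points (-15.3 to -7.62). All such intervals cover counting error only, since PCR copies cannot be told from separate molecules.

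A window was called when a two-sided Fisher's exact test on its methylated and unmethylated reads gave a Benjamini-Hochberg adjusted p under 0.01 over all windows and the levels differed by at least 25 points. In the segments 62 windows were called lower in I-PpoI and 2 higher. Over all windows 1.00% were called lower and 0.0742% higher. In the remainder of chromosomes 1, 8 and 12 these shares were 1.11% and 0.0687% (higher by chromosome 0.0757% on 1, 0.0616% on 12 and 0.0666% on 8). The segments' share was 2.80% (Wilson 95% interval 2.19 to 3.57), which restates how they were chosen.

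Distal chromosome 1 held 32 of the called-lower windows (2.61% of its windows, against 1.08% in the remainder of the chromosome). Proximal chromosome 12 held 16 (3.12% against 0.970%), and proximal chromosome 8 held 14 (2.94% against 1.23%). The 2 windows called higher lay on chromosomes 1 and 12. In the 5 Mb before the chromosome 1 segment the share was 1.43% (4 of 279 windows). Before the chromosome 12 segment it was 1.25% (4 of 320), and before the chromosome 8 segment 0.575% (2 of 348). After the segments it was 0% of 261 windows on chromosome 12 and 0.905% on chromosome 8 (2 of 221). The tip of chromosome 1 past the segment had 1 of 23 windows called lower (4.35%), too few to read. The segments were chosen for such windows, so lower shares outside their edges follow from the choice and carry no test.

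**Figure D1:**
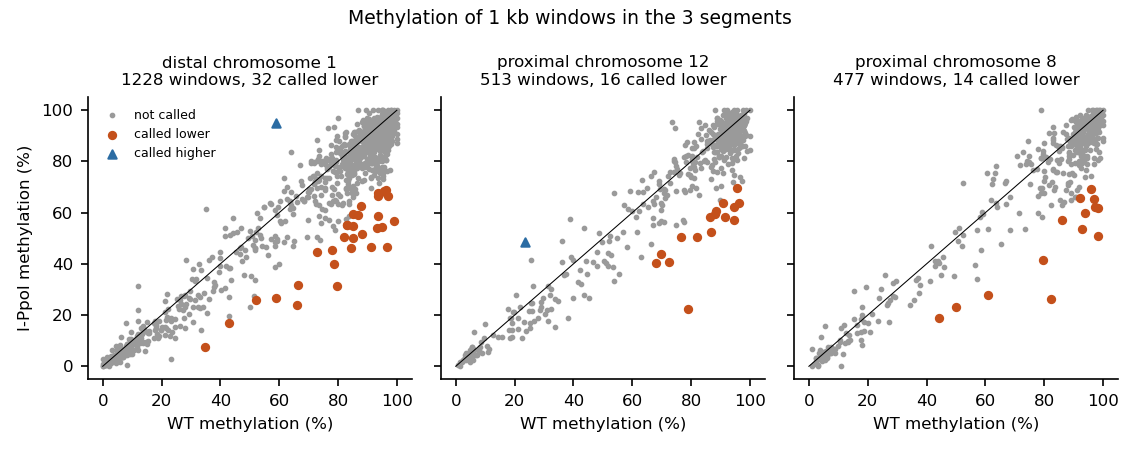
Methylation of each window in WT (x axis, %) and I-PpoI (y axis, %) for the 1228, 513 and 477 windows of the 3 segments; the diagonal line marks equal levels. Most windows lie near the line, and the 62 called lower lie below it, mainly at WT levels of 80% or more.

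Over the segments the libraries differed by little in a typical window and by much in a few. The median window difference, I-PpoI minus WT, was -1.85 points in the segments, -1.24 in the remainder of the same chromosomes and -1.23 over all windows. The segments were chosen for windows with falls, so these values are a description and carry no test. I-PpoI was below WT in 69.9% of segment windows and in 66.3% of the remainder. Falls of 10 points or more took in 15.1% of segment windows and 9.68% of the remainder, while rises of that size were alike at 1.80% and 1.78%. By segment the medians were -1.92 on chromosome 1, -1.93 on chromosome 12 and -1.66 on chromosome 8.

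How many calls a region can yield depends on its starting level, so the segments were set beside the remainder of their own chromosomes at like WT level, in classes of 10 points. At the remainder's rate the segments would have had 26.9 called-lower windows (1.21%) in place of 62, a ratio of 2.31. The segments were chosen for such windows, so a ratio above 1 follows from the choice and carries no test. The ratios were 2.15 on chromosome 1, 2.55 on chromosome 12 and 2.45 on chromosome 8. The mean difference was -3.60 points in the segments and -2.46 at like level. With a coverage minimum of 20 reads a cytosine, the ratio was 3.27, and with 30 reads it was 4.74, on 32 and 26 called windows.

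Windows at 80% or more in WT stood furthest above the remainder. In the class of 90 to 100%, 26 of 973 segment windows were called lower (2.67%), against 0.749% in the remainder. In the class of 80 to 90% it was 17 of 377 (4.51% against 1.56%). The classes of 60 to 80% (5.26% against 3.99%) and 25 to 60% (2.78% against 1.71%) were closer to the remainder. Windows under 25% in WT could not fall by 25 points.

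**Figure D2:**
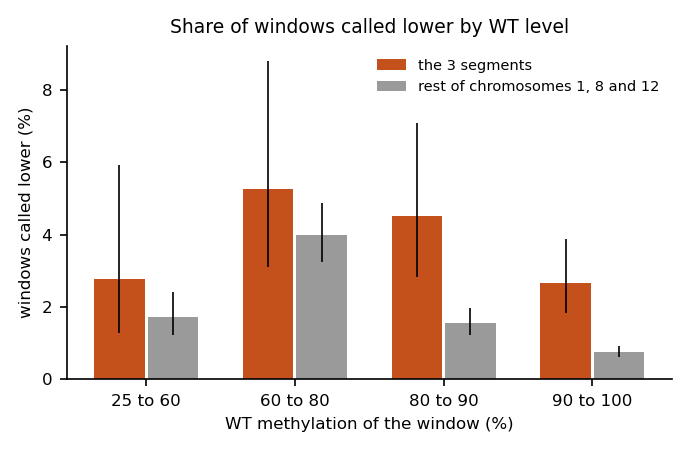
Share of windows called lower in I-PpoI (y axis, %) by WT methylation class (x axis, %) in the 3 segments and in the remainder of chromosomes 1, 8 and 12; error bars are 95% Wilson intervals. The bars differ most in the 80 to 90% class (4.51% and 1.56%) and the 90 to 100% class (2.67% and 0.749%). The segments were chosen for such windows, so the intervals give no test of the difference.

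Few called windows were at gene starts. Inside genes 35 of 1051 segment windows were called lower (3.33%, against 1.30% in the remainder), and between genes 25 of 881 (2.84% against 1.15%). Among windows at gene starts, whose median WT level was 8.16%, 2 of 286 were called (0.699% against 0.336%). Starts that the promoter table lacks, as on chromosome 8, were counted as inside or between genes. Windows with 3 to 5 measured cytosines were called in 4.42% of cases (2.28% in the remainder), windows with 6 to 15 in 2.63% (0.672%) and windows with more than 15 in 0.586% (0.175%).

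The called-lower windows ended mostly at intermediate levels, which depends in part on the minimum fall of 25 points that a call needs. The 62 windows had a median level of 86.8% in WT and 54.4% in I-PpoI. In 50 of them (80.6%) the I-PpoI level lay between 40% and 70%, against 61.7% of the 274 called-lower windows in the remainder. These sets also differed in starting level, at 80% or more in WT in 69.4% and 56.2%. In the remainder, 162 of the 274 had 3 or 4 cytosines. The part of either in the contrast was not tested. One window fell under 10%, with 3 cytosines going from 34.9% to 7.41% at chr1:184675001-184676000. Every cytosine was lower in 33 of the 62 windows, and 27 of the windows had only 3 or 4 cytosines. Of 47 windows with cytosines on both strands, 46 were below WT on both and 17 were at least 25 points lower on both.

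The called windows were spread over each segment, some of them close together. Within a segment the median gap between neighbouring called windows was 249 kb on chromosome 1, 329 kb on chromosome 12 and 215 kb on chromosome 8. The longest gaps were 2820, 2067 and 1806 kb in the same order. Of the 62, 27 lay within 100 kb of another (16 of 32 on chromosome 1), and the shortest gaps were 6, 46 and 4 kb in the same order. Measured windows that directly adjoin a called one numbered 18, and 0 of them were called lower. In 1 Mb bins, 11 of 15 on chromosome 1, 8 of 10 on chromosome 12 and 8 of 10 on chromosome 8 held a called window. The median difference was below 0 in all of these 15, 10 and 10 bins, as it was over the genome. The fullest bins of the 3 segments, among those with 20 or more windows, were chr1:193000001-194000000 (3 of 49 windows, 6.12%), chr12:29000001-30000000 (3 of 49, 6.12%) and chr8:36000001-37000000 (4 of 79, 5.06%). Within its own segment the next was chr8:38000001-39000000 (1 of 20), chr12:25000001-26000000 (3 of 60) or chr1:187000001-188000000 (3 of 65). On chromosome 8, chr8:34000001-35000000 had 1 of 80. None was called lower in chr1:188000001-189000000 (55 windows), chr12:20000001-21000000 (72 windows), chr12:27000001-28000000 (29 windows), chr8:39000001-40000000 (24 windows) or chr1:194000001-195000000 (20 windows). The same held for the adjoining bins chr1:185000001-186000000 (60 windows) and chr1:186000001-187000000 (63 windows), and for chr8:30000001-31000000 (16 windows).

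The largest falls among windows with 5 or more cytosines were in Grhl1 and Nrg1. On chromosome 8 the largest fall was in Nrg1, which encodes a ligand of ErbB receptors, at chr8:31981001-31982000. Its 5 forward-strand cytosines read 56.2%, 100%, 88.2%, 75% and 100% in WT, on 16 to 32 reads. In I-PpoI the same cytosines read 14.8%, 36.0%, 15.4%, 35.7% and 30.8%, on 13 to 27 reads. The lowest WT value was above the highest I-PpoI value. Pooled levels were 82.1% and 26.1%, a difference of -56.1 points (-66.0 to -43.3), with an adjusted p of 4.4e-14 by Fisher's exact test. A further window in Nrg1, chr8:32055001-32056000, went from 97.2% to 62.1% over 6 cytosines.

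On chromosome 12 the largest fall was in Grhl1, a grainyhead-like transcription factor of epithelia, at chr12:24608001-24609000. Its 3 forward cytosines each read 100% in WT, on 11 or 12 reads, and 14.3% in I-PpoI, on 28 reads. Its 3 reverse cytosines read 81.8%, 85.7% and 36.4% in WT and 30.8% each in I-PpoI. The last reverse cytosine differed by -5.59 points only, so the fall was not even across 57 bp. Pooled levels were 79.0% and 22.2% (-56.8 points, -65.7 to -45.4), with an adjusted p of 1.4e-17 by Fisher's exact test. Neighbouring cytosines of one strand share reads, and the test counts such a read at each of them.

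A window in Klf11, a Kruppel-like transcription factor, had more data. At chr12:24655001-24656000, 25 cytosines fell from 90.8% (89.4 to 92.0) to 63.9% (61.2 to 66.4), with 1976 and 1292 reads over cytosines. Of the 25 cytosines, 21 were lower in I-PpoI. Their levels ran from 78.9% to 100% in WT and from 48.1% to 100% in I-PpoI, so the ranges overlapped at the top.

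On chromosome 1 the largest of the named falls lay in the lncRNA loci Gm36388 and Gm46176, 7510 bp from Esrrg, an orphan nuclear receptor. At chr1:187600001-187601000, 9 cytosines went from 94.8% to 54.5% (-40.3 points, -49.9 to -30.6). Every WT value was 81.8% or higher and every I-PpoI value was 60% or lower, on 10 to 14 reads. In Cnih3, an auxiliary subunit of AMPA receptors, 8 cytosines at chr1:181408001-181409000 went from 78.5% to 40.1%. Single cytosines in Cnih3 ran from 67.5% to 92.0% in WT and from 12.5% to 58.8% in I-PpoI, without overlap. In Dlc1, a GTPase-activating protein, all 14 cytosines at chr8:36596001-36597000 were lower, with pooled levels of 92.0% and 65.8%. The Dlc1 ranges overlapped, at 73.8% to 100% and 20.5% to 90.9%.

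**Figure D3:**
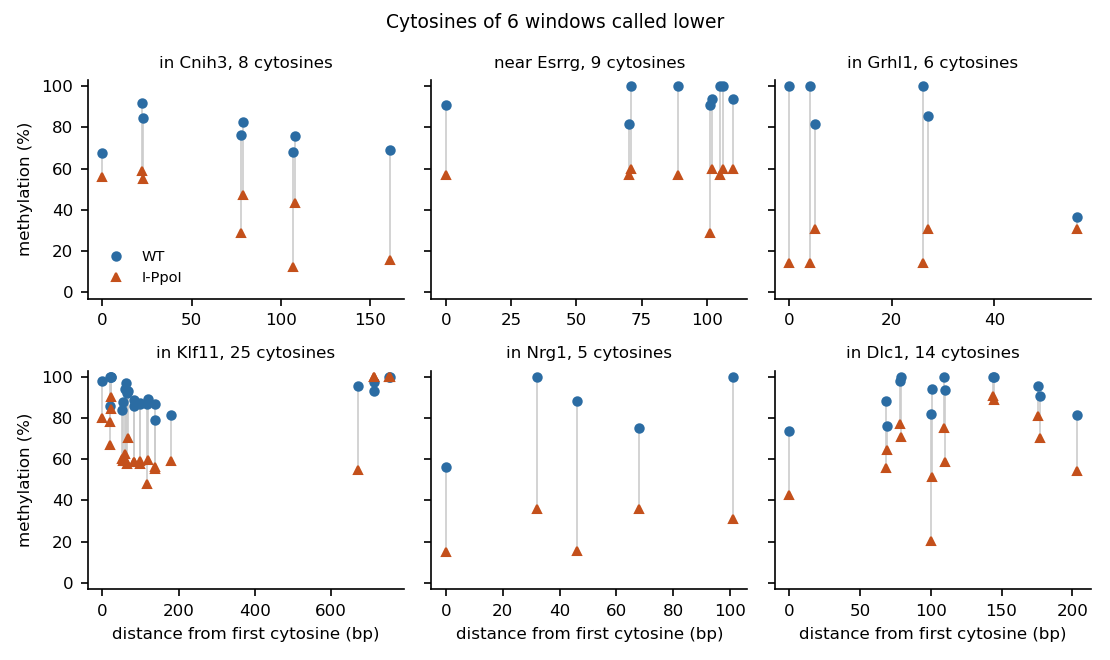
Methylation (y axis, %) of single cytosines in WT (circles) and I-PpoI (triangles) against the distance from the first cytosine (x axis, bp) in 6 named windows; grey lines join the values of a cytosine. All 14 cytosines of the Dlc1 window and all 5 of the Nrg1 window are lower in I-PpoI, while 21 of 25 are in Klf11.

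Of the other named windows on chromosome 1, chr1:180289001-180290000 between genes had 20 cytosines and went from 88.2% to 51.6%. The window chr1:180830001-180831000 in the lncRNA locus G370120E05Rik went from 66.5% to 31.9%. The window chr1:184774001-184775000 went from 84.9% to 50%, and chr1:191933001-191934000, which overlaps the pseudogene Gm39743, from 77.9% to 45.3%. All 6 cytosines of the G370120E05Rik window and all 6 at chr1:184774001-184775000 were lower, with no overlap of the libraries' values.

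On chromosome 12, chr12:25683001-25684000 went from 81.9% to 50.5%, chr12:25805001-25806000 from 94.6% to 62.2% and chr12:29084001-29085000 from 72.6% to 40.8%. The window chr12:26122001-26123000 in Gm29687 went from 88.3% to 60.6%. On chromosome 8, chr8:35257001-35258000 in Gm34647 went from 50% to 23.0%, and chr8:36394001-36395000, with 13 cytosines, from 86.2% to 57.2%. In each of these windows except chr12:29084001-29085000, at least 1 cytosine was not lower, and in all of them the ranges of the libraries overlapped.

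The 2 windows called higher differed in depth. At chr12:24357001-24358000, 6 cytosines rose from 23.4% (21.1 to 25.9) to 48.6% (44.6 to 52.7), each of them higher, with 1176 and 588 reads over cytosines. In Mark1, a microtubule-affinity-regulating kinase, 4 cytosines at chr1:184897001-184898000 rose from 59.0% to 95%. The Mark1 window fell outside the rule for named windows and was chosen after its values were seen.

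Under a stricter test, which scales the Fisher-type statistic by the spread between the cytosines of a window, 168 windows were called lower over the genome (0.101%). Of these, 7 were in the segments: chr1:180289001-180290000, the Cnih3 and Klf11 windows, the window 7510 bp from Esrrg, chr12:23801001-23802000 beside Gm38699, chr8:36394001-36395000 and the Dlc1 window. The windows with the largest falls were not called by it, with a scaled-test adjusted p of 0.057 for Nrg1 and 0.12 for Grhl1. The window chr12:23801001-23802000 overlaps the Gm38699 promoter printed above, so these results share cytosines.

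Of 191 protein-coding genes in the segments, 181 had a window in or within 1000 bp of them, and 24 had a called-lower window. Among them were Psen2, Itpkb, Cnih3, Susd4, Tlr5, Disp1, Esrrg, Ptpn14, Rps6kc1, Ints7 and Kcnh1 on chromosome 1. On chromosome 12 they were Asap2, Iah1, Adam17, Gm38699, Grhl1, Klf11, Rsad2 and Dcdc2c, and on chromosome 8 Nrg1, Wrn, Gsr and Dlc1. For scale in the 3 gene lists that follow, 2.80% of the segments' windows (3.33% of those inside genes) were called lower, with a median difference of -1.85 points. Over all windows of the genome the values were 1.00% and -1.23 points.

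Of 14 genes of DNA repair and chromatin, 13 lay in the segments, 1 had a called-lower window and none a higher one, and 1 of their 61 windows was called lower (1.64%). The median over genes of each gene's median difference was -0.72 points. The exception was Wrn, a RecQ helicase, in which 6 cytosines at chr8:33330001-33331000 went from 44.2% to 19.0%. In Parp1, a sensor of DNA breaks, 3 windows had a median difference of -2.22 points, and the lowest went from 97.8% to 93.6%. The lowest window of Tnks, a tankyrase, went from 73.5% to 53.6% and was not called.

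Of 25 immune and blood genes, 22 lay in the segments and 7 had a called-lower window (Itpkb, Gsr, Asap2, Rsad2, Tlr5 and Adam17 among them), in 7 of 135 windows (5.19%). The median of gene medians was -1.71 points. In Itpkb, an inositol trisphosphate kinase needed in lymphocyte development, 3 cytosines went from 91.3% to 46.7%. In Gsr, glutathione reductase, 4 cytosines went from 92.9% to 53.5%, and in Asap2, an Arf GTPase-activating protein, 3 went from 94.7% to 57.1%. In Rsad2, the antiviral protein viperin, 4 cytosines went from 86.7% to 52.4%. The called windows of these 4 genes held 3 or 4 cytosines each. Uncalled members included Cd34, a surface marker of blood progenitors, whose median difference over 2 windows was 0.02 points.

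All 29 developmental and signalling genes lay in the segments, and 9 had a called-lower window and 1, Mark1, a called-higher one. Their called-lower windows were 12 of 361 (3.32%), and the median of gene medians was -2.20 points. After Grhl1 and Nrg1, the largest falls were in Esrrg, where 3 cytosines went from 96.7% to 46.5%, and Ptpn14, a tyrosine phosphatase, where 3 went from 99.1% to 56.8%. Dlc1, Rps6kc1, Kcnh1, Klf11 and Disp1 made up the rest. Sox11, a transcription factor of neural development, had no called window among 4, the lowest going from 11.2% to 6.78%.

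Cytosines listed in 1 file alone were a measure that the choice of the segments had not used. Both files list only cytosines of 10 or more reads, so one not listed may have had fewer. At 20 or more reads in the I-PpoI library, 638 of 32620 segment cytosines were not in the WT file (1.96%, Wilson 1.81 to 2.11), against 0.451% in the remainder of the same chromosomes and 0.419% over all chromosomes. The share was 3.49% on proximal chromosome 12 and 3.40% on proximal chromosome 8, but 0.696% on distal chromosome 1 (0.424% in the remainder of that chromosome). At 50 or more reads it was 0.760% in the segments and 0.0557% in the remainder. With no replicates this is a description of 2 libraries.

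The reverse class was larger at this read minimum in each of the 3 segments. At 20 or more WT reads, 7.20% of segment cytosines were not in the I-PpoI file, against 5.47% in the remainder. By segment it was 5.88% on chromosome 1, 8.43% on chromosome 12 and 9.07% on chromosome 8. At 50 or more reads the order differed with the segments pooled, with 0.760% of cytosines in I-PpoI alone and 0.733% in WT alone. By segment it differed on proximal chromosome 12 only, with 1.73% in I-PpoI alone and 0.891% in WT alone. At 20 or more reads, cytosines listed in WT alone averaged 81.7% methylation in the segments, against 39.6% for shared ones. Those in I-PpoI alone averaged 49.2%, against 32.7%. The remainder was much alike, at 83.6% against 38.6% and 47.9% against 33.1%.

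Among 495 tiles of 5 Mb, the 4 tiles of the chromosome 8 and 12 segments had the 4 highest shares of cytosines in I-PpoI alone, all above the median tile (0.341%). They were chr8:35000001-40000000 (3.96%), chr12:25000001-30000000 (3.56%), chr12:20000001-25000000 (3.46%) and chr8:30000001-35000000 (2.94%). The tile before them on chromosome 12 ranked 6 (2.16%), and the tile after them on chromosome 8 ranked 8 (1.81%). On those sides the excess ran past the segment edge. On the other sides it did not. The 5 Mb after the chromosome 12 segment had 0.639% (0.511% in the remainder of that chromosome). The 5 Mb before the chromosome 8 segment had 0.483% (0.435% in the remainder of that chromosome). The tiles of distal chromosome 1 ranked 24, 33 and 355. Across all 495 tiles the share in I-PpoI alone and the share of windows called lower had a Spearman correlation of 0.08, and 0.05 over the 488 tiles outside the segments. Tiles share both libraries, so the correlation is given as a description.

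**Figure D4:**
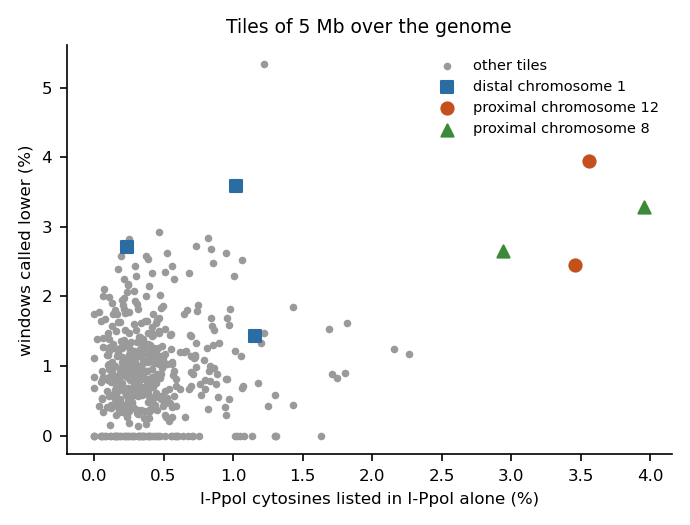
Share of windows called lower (y axis, %) against the share of I-PpoI cytosines of 20 or more reads listed in I-PpoI alone (x axis, %) in 495 tiles of 5 Mb. The 4 tiles of the chromosome 12 and 8 segments stand at 2.94% to 3.96% on the x axis, to the right of the other tiles, and the 3 tiles of distal chromosome 1 do not.

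In single 1 Mb bins, here picked after their values were seen, both measures were high in some and only 1 in others. The bin chr12:21000001-22000000 had 7.29% of its I-PpoI cytosines in I-PpoI alone and 4.62% of windows called lower. The bin chr8:38000001-39000000 had 9.87% and 5%, chr1:188000001-189000000 had 3.42% and 0%, and chr1:190000001-191000000 had 0.269% and 4.50%.

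**Figure D5:**
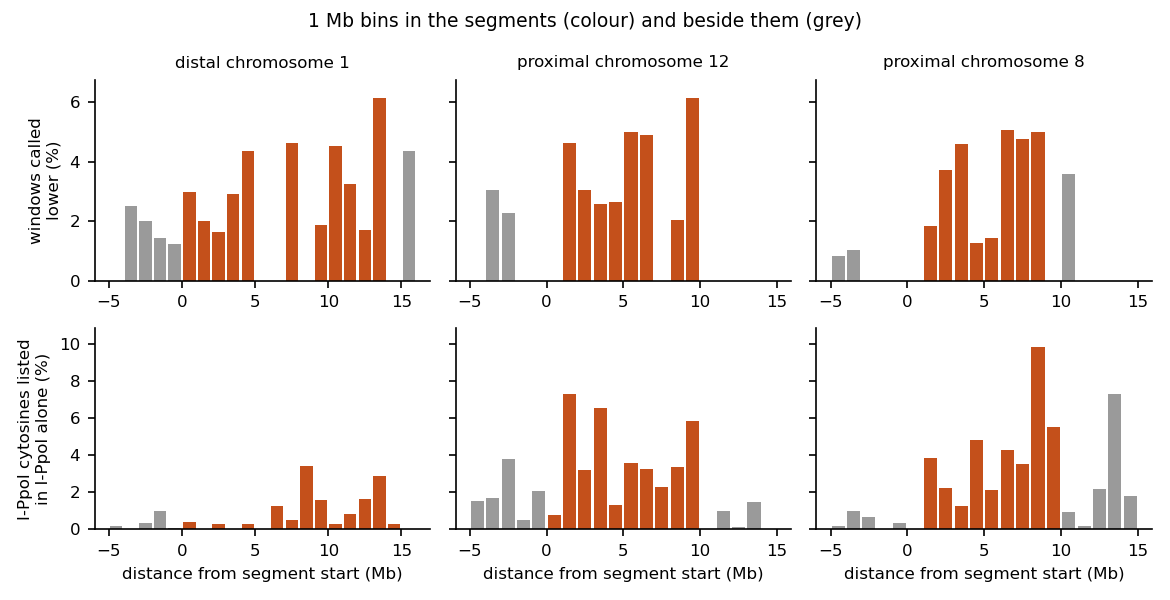
Share of windows called lower (upper row, %) and share of I-PpoI cytosines of 20 or more reads listed in I-PpoI alone (lower row, %) in 1 Mb bins, by distance from the segment's start (Mb); coloured bins are in the segment and grey bins within 5 Mb of it. Within the segments the lower row reaches 3.42% on chromosome 1, 7.29% on chromosome 12 and 9.87% on chromosome 8.

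The called windows were also placed by their distance to cytosines listed in 1 file alone. Of the 62 called lower, 24 (38.7%) lay within 2 kb of a cytosine of 20 or more reads listed in 1 file alone, against 40.9% of the 1750 segment windows at 25% or more in WT that were not called. Near cytosines in I-PpoI alone there were 6 of the 62 called (9.68%) and 97 of the 1750 uncalled (5.54%), and on chromosome 12 it was 3 of 16 (18.75%) and 41 of 422 (9.72%). These counts are small and were not tested. Away from such cytosines 38 of 1298 segment windows were called lower (2.93%), and within 2 kb 24 of 920 (2.61%). In the remainder the shares were 0.925% and 1.48%. Without the windows near them, the ratio to the remainder at like WT level was 2.75.

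The cytosines in I-PpoI alone came in runs. Runs of 10 or more numbered 3 on chromosome 1, 8 on chromosome 12 and 4 on chromosome 8, and runs of 10 or more in WT alone numbered 19, 10 and 14. The longest of the former lay at the Ywhaq start printed above, with 28 cytosines from chr12:21417449 to chr12:21417733, 25 to 101 reads each and 0.864% methylation. The WT file listed none between them, while shared cytosines within 2 kb had medians of 55 WT and 64 I-PpoI reads. In the promoter, 14 CpGs were listed on both strands in I-PpoI alone, with 16 to 56 forward and 46 to 101 reverse reads. They began beside the only CCGG of the table's 300 bases, at chr12:21417442. The last of them lay 148 bp from that site's CG, where the RefSeq plus strand reads ACGG and not CCGG. Of the run's 28 cytosines, 27 lay in the promoter. The other was a single cytosine of 25 reads at chr12:21417733, past the table's bases. It counts in the run because cytosines up to 300 bp apart were joined. Read ends are not given in the data. Why these cytosines were listed in I-PpoI alone was not tested. Whether the animals differ in DNA sequence in these segments was not tested either, and a difference at a CCGG or a CpG would alter which cytosines are listed and which are read as methylated.

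The Id2 run was of another kind. There 13 CpGs had the forward strand in both libraries, with 19 to 22 WT and 16 to 24 I-PpoI reads, and the reverse strand in I-PpoI alone, with 23 or 24 reads. The run at Id2 was thus 1 strand not listed in WT, beside a listed one. At Iah1, an esterase-like gene, 20 cytosines from chr12:21316645 to chr12:21316743 had 21 to 88 reads and 3.49% methylation. Other runs were methylated, such as 11 cytosines in Smyd2, from chr1:189896935 to chr1:189897216, at 81.2%.

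By whole CpG, 1.05% of the 29354 CpGs in the segments had both strands in I-PpoI alone, against 0.191% in the remainder. The share was 1.53% on chromosome 12, 1.74% on chromosome 8 and 0.514% on chromosome 1. Of CpGs with both strands in both files, 0.792% were at least 25 points lower on both strands, against 0.280% in the remainder. A further 4.84% were that much lower on 1 strand only, against 3.03%. The segments were chosen for falls in methylation, so these higher shares follow from the choice and carry no test. Read depth differed as well. Among shared cytosines I-PpoI reads were over 3 times the WT reads at 0.522% in the segments and 0.0919% in the remainder, and at 1.05% on proximal chromosome 12. WT reads were over 3 times the I-PpoI reads at 5.38%, 3.26% and 9.22%. The part of these depth differences in the methylation calls was not tested.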

How the data were processed

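Per the labels' protocols, RRBS libraries of peripheral blood cell DNA were made with a Zymo-Seq kit. The submitters' processing notes name methylKit without a version. Which aligner, build, trimming and duplicate removal were used is not given in the sources used here. By the deposited tables, per the file headers, the authors' coverage is a count of reads over each cytosine on its strand, none under 10, and the deposited freqC and freqT values are the percent of those reads with C or T. Methylated reads were recovered as whole numbers from both.

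Cytosines on autosomes and X with 10 or more reads in both libraries and at or below the 99.9th percentile of coverage (284 reads in WT, 252 in I-PpoI) were pooled in windows of 1000 bp with 3 or more of them. Fisher's test with Benjamini-Hochberg adjustment ran over all 165854 windows, in Python 3.11.15 with numpy 2.4.6, and was tested on simulated data. The simulation drew each cytosine independently and lowered well covered windows only. It therefore does not measure false calls where neighbouring cytosines share reads. The scaled test divides a Cochran-Mantel-Haenszel statistic by the spread between cytosines.

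The segments, gene lists and tests were chosen with earlier results of these data known. Named windows are the 6 largest falls and 2 largest rises in each segment among called windows with 5 or more cytosines, 50 or more reads in each library and 80% of cytosines moving that way, named 1 Mb bins those with the 2 highest and 2 lowest shares, and named genes up to 4 called members of a list by size. Other features were chosen after their values were seen. Genes and promoter sequences come from RefSeq tables of GRCm38.p6. Some items are not reported here.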

Additional observations from a re-analysis of the deposited data

How the results depend on the processing

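No paired analysis was possible because each group has 1 library, and for the same reason no replicate could be left out. No result changed direction under an alternative that was run. The ratio of called-lower windows to the remainder at like WT level (2.31) was 3.27 and 4.74 with 20 and 30 reads a cytosine, 3.19 with 5 or more cytosines a window and 3.23 under the scaled test. The other alternatives ran from 1.83 (forward strand alone) to 2.75. The 62 called-lower windows became 32 and 26 with 20 and 30 reads, 38 on either strand alone, 35 with 5 or more cytosines, 154 at a minimum of 15 points, 9 at 40 points, 7 under the scaled test, and 38 without windows near cytosines of 1 file (added after seeing the data). Fewer cytosines or windows enter most of these, and the cause of the higher ratios and of the scaled count was not tested. The median difference (-1.85 points) was -1.57 and -1.50 with 20 and 30 reads, and -1.46 and -1.55 on forward and reverse strands alone.

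The share of cytosines in I-PpoI alone was 5.29% at 10 reads, 1.96% at 20, 0.760% at 50, 7.02% for those 80% or more methylated and 1.92% where the other strand was in both files, all added after seeing the data. The share in WT alone was 16.8%, 7.20%, 0.733%, 30.1% and 6.76%. The 17 named windows remained called in 157 of 197 pairs of window and setting, counting only pairs with the window still measured (9 windows at 30 reads). Some pairs could not change, so this count does not measure robustness. By their choice, all 17 pass a minimum of 5 cytosines or a difference minimum under 25 points. Their differences were also unchanged without the coverage cap, or without cytosines at 90% or more in 1 library and 10% or less in the other. Of the 17, 6 were called under the scaled test, 3 at 40 points and 10 of the 11 still measured at 20 reads. Depth limits these results: 27 of the 62 windows rest on 3 or 4 cytosines, and reads shared by neighbouring cytosines make intervals too narrow.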
